A study of Mus musculus with 12 samples.

Results

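The cytochrome P450 genes of families 1 to 4 were followed in mouse liver 2 h after lipopolysaccharide (LPS), the bacterial cell wall component that activates toll-like receptor signalling. Members were all gene rows whose Ensembl identifier maps to a mouse symbol beginning Cyp1, Cyp2, Cyp3 or Cyp4, followed by a subfamily letter and a number. Cyp2ab1, whose subfamily name has a pair of letters, was included, and 18 pseudogene symbols and the antisense gene Cyp4x1os were not. This gave 81 of the 49585 gene rows of the liver tables, all annotated as protein coding. There were 3 members in family 1, 49 in family 2, 9 in family 3 and 20 in family 4, in 22 subfamilies.

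Poly(A) RNA of C57BL/6 mice was sequenced from liver that was untreated (3 libraries, titled WT) or taken 2 h after LPS (3 libraries, titled LPS). Peritoneal macrophages, which served here for detection alone, had been infected with a hairpin-expressing lentivirus, and LPS was added for 2 h after 72 h of infection. The hairpin was a negative control (shNC, 3 libraries) or targeted the long non-coding RNA Gm26917 (shGm26917, 3 libraries), so there was no macrophage group without virus or without LPS. Age, sex, LPS dose and the time of day of sampling are not given in the labels, which also do not say whether the libraries of a group came from separate animals, so p-values measure the spread between these libraries.

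Cytochrome P450 enzymes of these families are heme proteins of the endoplasmic reticulum that insert an oxygen atom into their substrates, with electrons passed on by the reductase Por and by cytochrome b5. Families 1 to 3 oxidise drugs, pollutants and steroids, and family 4 mostly hydroxylates the far end of fatty acids and eicosanoids. In liver they are made mainly by hepatocytes, several of them mostly around the central vein. The ligand-activated receptors Ahr, Nr1i2 (PXR), Nr1i3 (CAR) and Ppara control the textbook inducible members, and growth hormone pulses set sex differences in many mouse members. Inflammation is known to lower many hepatic P450 transcripts in rodents over the hours and days that follow.

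The members lie mostly in tandem arrays of similar genes, and promoters within an array can be nearly alike. The promoters of Cyp2a4 and Cyp2a5 are shown because these genes of 1 array differed 9.03-fold and 62.3-fold between untreated libraries, each with its highest value in replicate 3, and that of Cyp1a1 because no LPS library held a read of it. Each sequence is the RefSeq promoter on GRCm38.p6, from 250 bases before to 50 bases after the annotated start, read 5′ to 3′. Capitals mark TATAAA and, in Cyp1a1, also GCGTG, the core letters bound by the Ahr complex. The Cyp2a4 window is chr7:26306942-26307241, plus strand, the Cyp2a5 window chr7:26835089-26835388, plus strand, and the Cyp1a1 window chr9:57697363-57697662, plus strand.
Cyp2a4: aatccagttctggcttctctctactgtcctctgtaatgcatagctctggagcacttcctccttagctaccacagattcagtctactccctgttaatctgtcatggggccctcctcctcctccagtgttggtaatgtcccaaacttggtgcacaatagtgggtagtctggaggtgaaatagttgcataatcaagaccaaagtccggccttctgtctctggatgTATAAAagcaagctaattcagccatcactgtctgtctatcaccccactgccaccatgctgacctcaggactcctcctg
Cyp2a5: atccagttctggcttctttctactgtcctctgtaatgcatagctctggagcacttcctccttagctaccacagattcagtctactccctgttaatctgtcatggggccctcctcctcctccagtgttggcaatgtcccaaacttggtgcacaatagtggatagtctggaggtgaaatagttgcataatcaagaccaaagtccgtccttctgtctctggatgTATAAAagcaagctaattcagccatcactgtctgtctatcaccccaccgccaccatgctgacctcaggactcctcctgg
Cyp1a1: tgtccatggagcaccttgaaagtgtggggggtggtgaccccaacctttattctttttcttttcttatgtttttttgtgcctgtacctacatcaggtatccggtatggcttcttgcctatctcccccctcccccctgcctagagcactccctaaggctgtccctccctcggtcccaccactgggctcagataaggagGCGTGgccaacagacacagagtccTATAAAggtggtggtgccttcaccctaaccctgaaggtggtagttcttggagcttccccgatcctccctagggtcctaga
The Cyp2a4 and Cyp2a5 windows were 97.7% identical. RefSeq promoters were matched for 66 members, with 73 windows in all, and TATAAA on either strand was present in 29 of the 73 windows against 13.6% of all 32851 promoters of the same length. GCGTG on either strand was present in 15 of the 73, against 32.4% of all promoters. The palindromic C/EBP motif TTGCGCAA, the D-box TTATGTAA bound by Dbp, Tef and Hlf, and the NF-kB and direct-repeat motifs were in none of the 73 windows. Their shares among all promoters were 0.18%, 0.94%, 0.16% and 0.04%, in that order, so absence from 73 windows is near the background.

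The liver libraries held 17322770 to 20913964 counts. The hepatocyte marker list was reduced to the 8 genes with a matching symbol in the liver tables. All 8 were present, with a summed level of 85832 to 131548 CPM (counts scaled to a common library size) before and 75301 to 111956 CPM after LPS. Summed neutrophil markers were 14.9 to 71.5 CPM before and 2297 to 3185 CPM after LPS, and 8 of their 9 tested genes rose, against 23.3% of all tested genes. Xist was at 460 to 823 CPM and the Y-linked genes Ddx3y, Eif2s3y, Kdm5d and Uty had 0 counts in all 6 liver libraries. In bulk liver, fewer cells of a type and less RNA per cell cannot be told apart.

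The spread between libraries of a group was wide in these genes, which touches every result. The median gap between the highest and lowest untreated library was 1.07 on the log2(CPM + 0.5) scale over the members tested, against 0.52 over all tested genes. Among LPS libraries it was 0.87 against 0.43, and without LPS replicate 1 it was 0.18 against 0.17. Without untreated replicate 3 the untreated gap was 0.55 against 0.30. Untreated replicate 3 had the highest level of the 6 libraries in 23 of 56 members (41.1%, against 19.5% of all genes), and untreated replicate 2 in 16 of 56 (28.6%, against 14.0%). LPS replicate 1 had the lowest in 29 of 56 (51.8%, against 23.5% of all genes). LPS replicates 2 and 3 were thus close to each other at the median, and the untreated libraries were spread more widely than those of all genes with or without replicate 3.

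Untreated replicate 3 also differed in clock genes. Dbp, a clock-controlled transcription factor that drives Cyp2a genes in mouse liver, was at 0.364 and 0.417 CPM in untreated replicates 1 and 2, at 82.8 CPM in untreated replicate 3, and at 0.251 to 0.333 CPM in the LPS libraries. Per3, a clock repressor, was at 0.774, 0.788 and 45.5 CPM in the untreated libraries and at 0.127 to 0.610 CPM in the LPS libraries. Alas1, the rate-limiting enzyme of heme synthesis, was at 204, 200 and 947 CPM untreated. The part of these differences in the results was not tested. LPS replicate 1 held less of several Kupffer cell markers, such as Vsig4 at 2.95 CPM against 19.3 and 21.3 CPM in the other LPS libraries, and the summed Kupffer list was at 170 CPM there and at 310 to 457 CPM in the other 5 libraries.

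**Figure D1:**
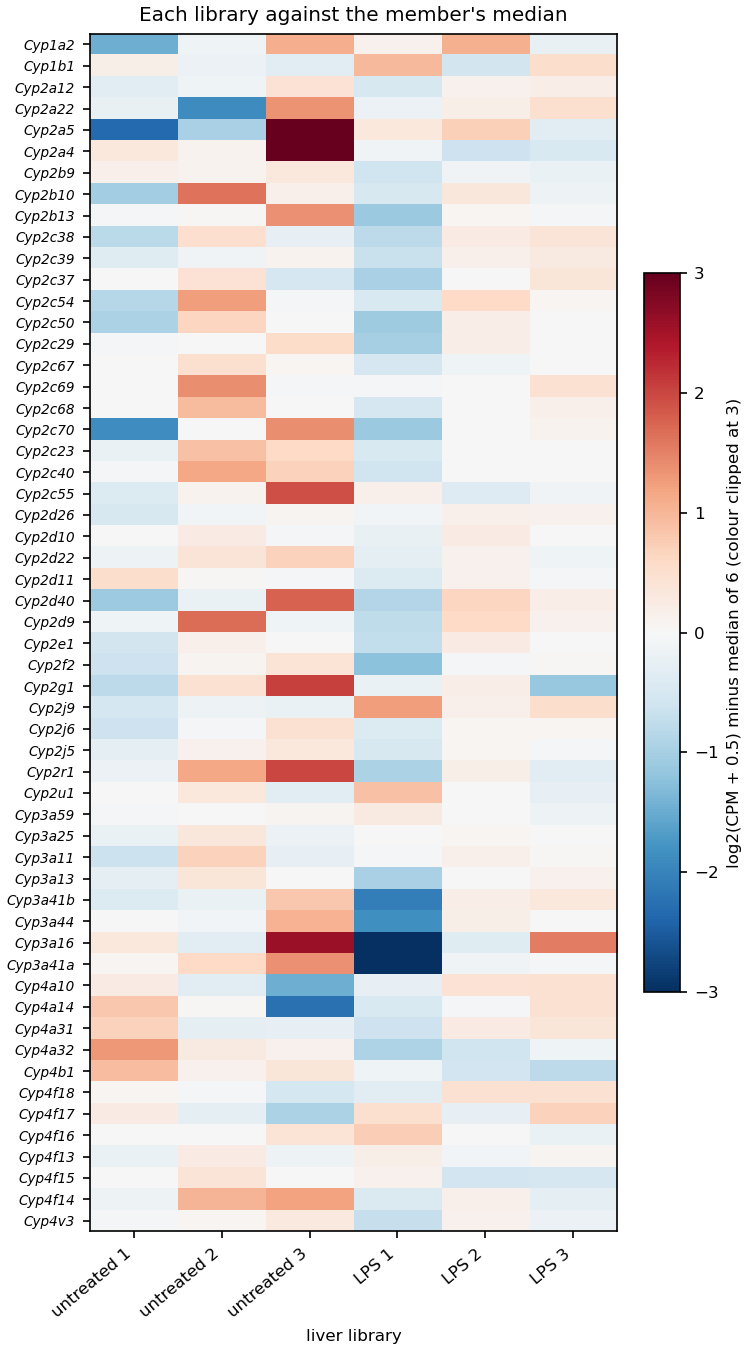
Each row is a tested P450 gene and each column a liver library, and the colour is log2(CPM + 0.5) minus the gene's median over the 6 libraries, clipped at 3. Red accumulates in untreated replicate 3, which was highest in 23 of 56 genes, and blue in LPS replicate 1, which was lowest in 29.

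At 2 h after LPS few of these genes were called changed. Of the 56 members that passed the filter on low counts, 5 fell (Cyp2a4, Cyp2r1, Cyp4a32, Cyp4b1 and Cyp4f14) and 1 rose (Cyp2j9) at an adjusted p under 0.05 in edgeR's quasi-likelihood test over 13869 genes. The members' share was 10.7%, and the background was 45.3% of all tested genes called in either direction, 22.1% lower and 23.3% higher. The groups did not overlap in 7 of the 56 (12.5%), where the background was 57.8%. The median log2 fold change was -0.32 over the tested members and -0.06 over all tested genes, with 40 negative and 16 positive values. Their median standard error (SE) was 0.37, against 0.27 over all genes, and the 95% interval lay within 1 log2 unit of 0 on both sides in 20 members (35.7%, against 30.5% of all genes). For the other members a change of 2-fold was inside the interval, so a missing call does not show an unchanged level. The count of lower members was 15 on library totals and 9 with upper-quartile scaling or without the low-count filter. Leaving out untreated replicate 2, untreated replicate 3 or LPS replicate 1 gave 3, and leaving out LPS replicate 2 or LPS replicate 3 gave 2. Some of these counts include genes outside the 5. The share of all tested genes called in either direction was 52.3% on library totals, 47.7% with upper-quartile scaling and 27.4% without the filter. With 1 library left out it was 33.8% to 43.8%. Without the filter 72 members were tested. Cyp1a1, removed by the reported filter, was called lower without untreated replicate 3 or any 1 of the LPS replicates. Of the 5, Cyp4a32 and Cyp4b1 alone stayed called without untreated replicate 3. Cyp4b1 alone did so without LPS replicate 1, Cyp2r1 alone without LPS replicate 2 and Cyp4a32 alone without LPS replicate 3. The count of higher members was 0 on library totals and with upper-quartile scaling. It was also 0 when untreated replicate 1, untreated replicate 2 or LPS replicate 1 was left out, and 2 when untreated replicate 3 was.

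**Figure D2:**
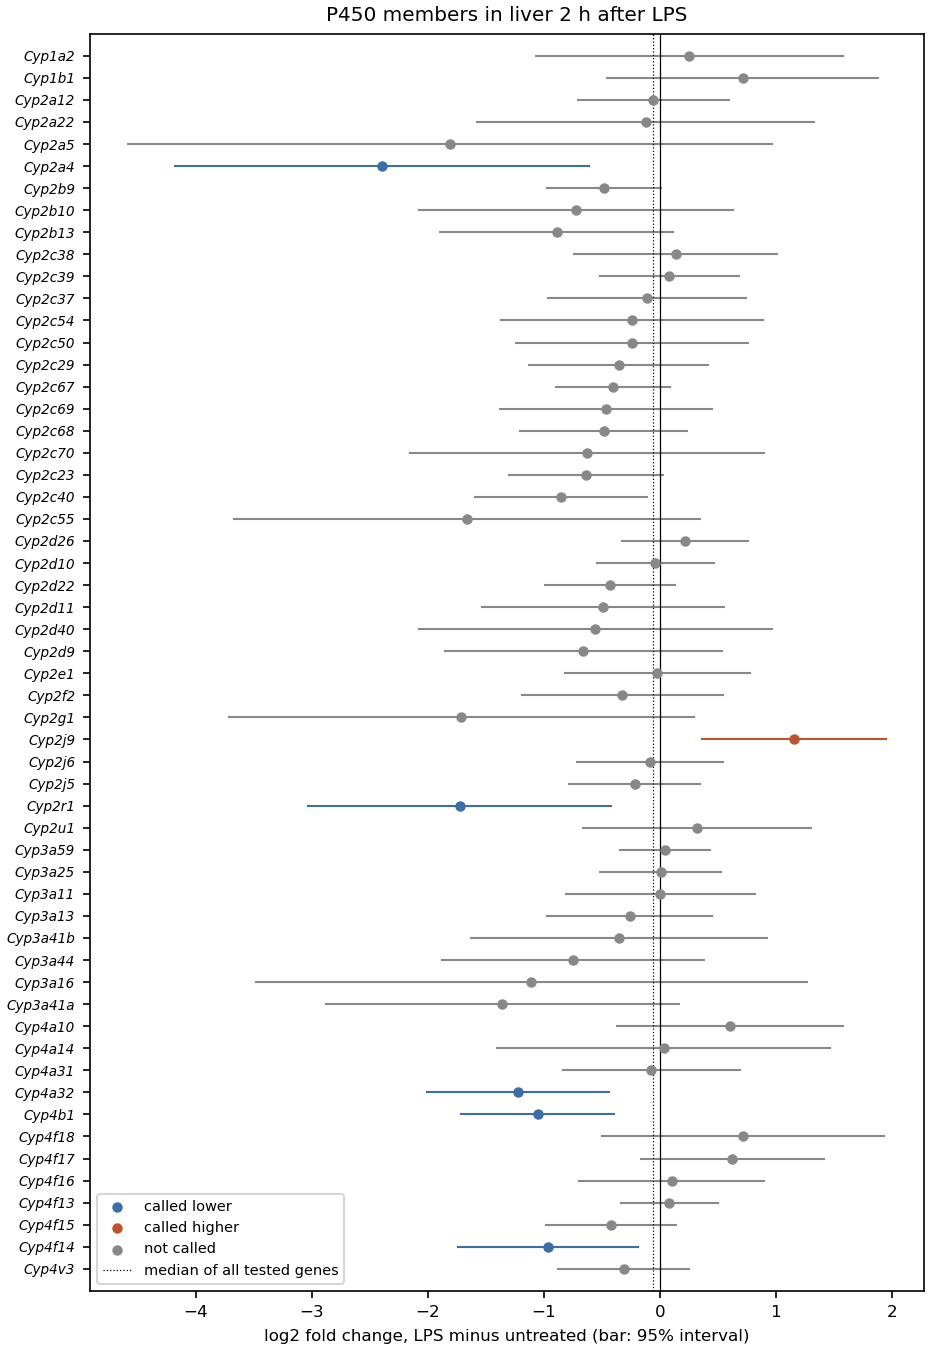
Points are log2 fold changes (LPS minus untreated, 3 libraries each) of the 56 tested P450 genes in order of subfamily, and bars are 95% intervals. The intervals of the 5 genes called lower and of Cyp2j9 lie on 1 side of 0, as does that of Cyp2c40, whose adjusted p was 0.0606.

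Summed over the 81 members, P450 transcripts were at 23879, 27936 and 24770 CPM in the untreated libraries and at 17569, 27097 and 27028 CPM in the LPS libraries. The LPS values of replicates 2 and 3 lay inside the untreated range and that of replicate 1 below it. The ratio of the means was 0.936, and 0.696 on library totals. As a share of the library's counts, the members held 2.84% to 3.03% before and 1.55% to 2.34% after LPS. The 10 genes with the highest CPM held 67.7% to 79.8% of the members' counts.

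**Figure D3:**
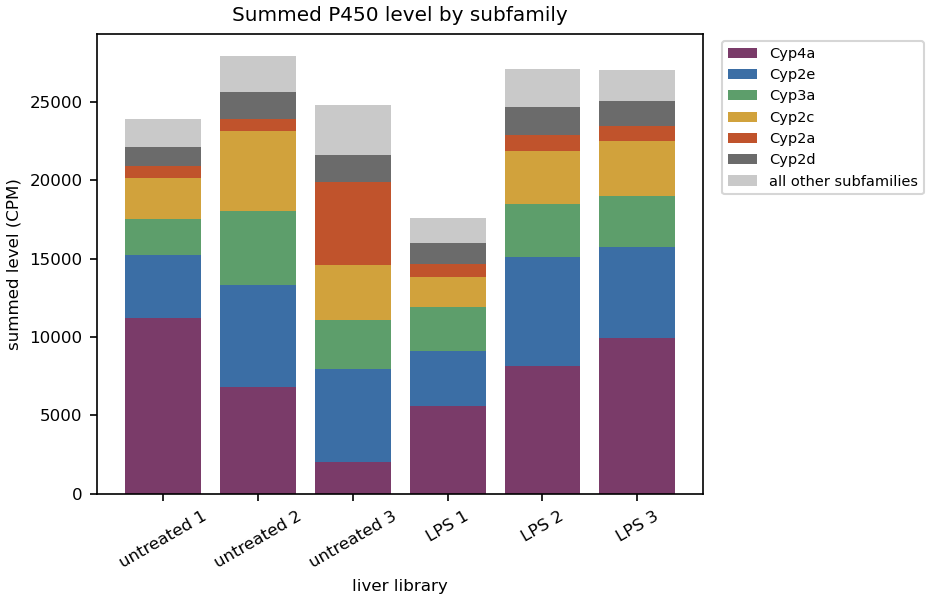
Bars from 0 give the summed CPM of the P450 genes in each liver library, split by subfamily. Cyp4a makes up 11207 CPM of the bar in untreated replicate 1 and 2004 CPM in untreated replicate 3, where Cyp2a is at 5273 CPM.

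The ethanol- and acetaminophen-oxidising enzyme Cyp2e1 had the highest level per kilobase of exon, 2548 ± 603 CPM per kb (SD, n = 3) in untreated and 2511 ± 805 in LPS liver. It was at 4033, 6519 and 5943 CPM in the untreated and at 3526, 6939 and 5788 CPM in the LPS libraries. The ranges lay on top of each other, and the log2 fold change was -0.02 with a 95% interval from -0.82 to 0.78. Behind it in untreated liver came Cyp4a14 (1697 ± 1317 CPM per kb) and Cyp4a10 (1035 ± 544). The wide spread of Cyp4a14 enclosed the means of Cyp2e1 and Cyp4a10, while the Cyp4a14 mean lay outside the spreads of these neighbours. Cyp2a4, Cyp2a5, Cyp3a11, Cyp2d26, Cyp2c37, Cyp2d10 and Cyp2c69 followed at means of 302 to 457 CPM per kb. Among these 7 neighbours the spreads overlapped, and the mean values of Cyp2a4 and Cyp2a5 rested on untreated replicate 3. In LPS liver Cyp2e1, Cyp4a14 and Cyp4a10 held the highest 3 places, with Cyp2a5 in place 18 and Cyp2a4 in place 21.

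**Figure D4:**
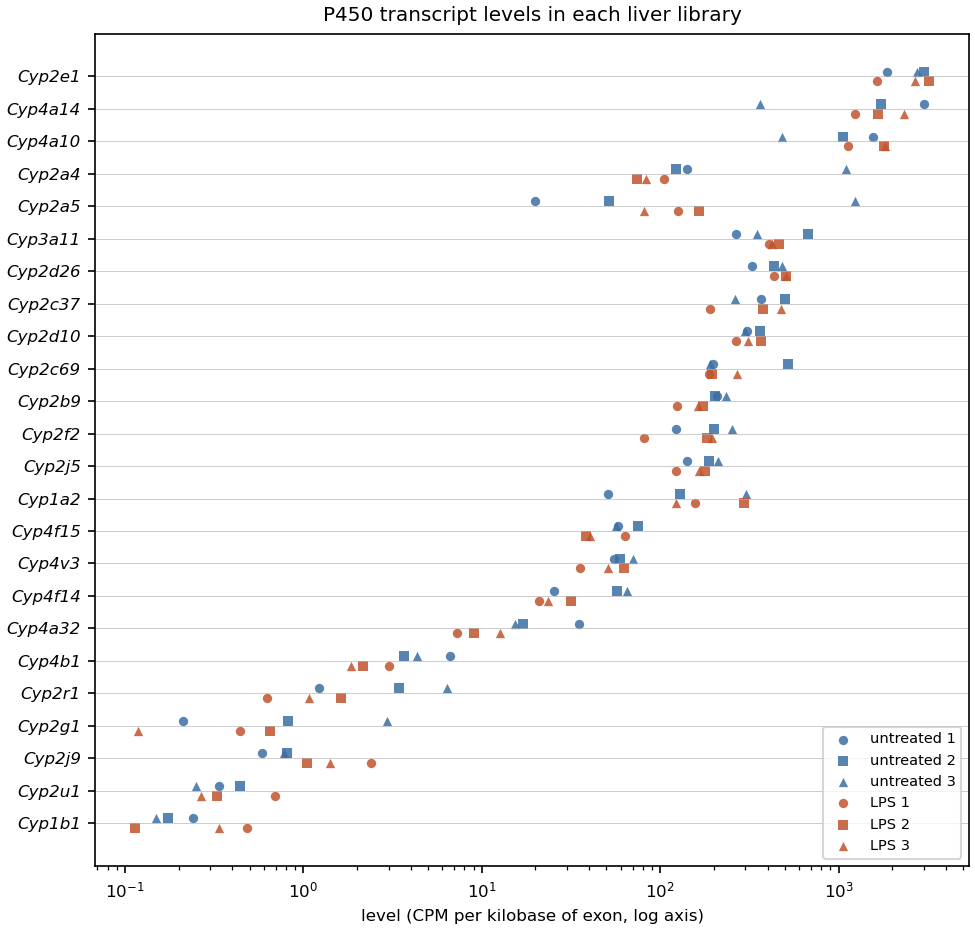
Each point is the level of a named P450 gene in a liver library, in CPM per kilobase of exon on a log axis, with untreated libraries in blue and LPS libraries in orange and marker shapes for replicates. Cyp2a4 and Cyp2a5 each have 1 untreated point (replicate 3) far above the other 5, and Cyp4a14 has 1 untreated point (replicate 3) far below.

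The Cyp3a subfamily, the main drug-metabolising group of liver and the classical target of Nr1i2, had 9 members, of which 8 were tested and none called, against the background of 45.3% (median log2 fold change -0.30). Cyp3a11, its most abundant member per kilobase, was at 1360, 3421 and 1772 CPM untreated and at 2068, 2348 and 2158 CPM after LPS. The LPS values lay inside the untreated range, with a log2 fold change of 0.00 (95% interval -0.81 to 0.82). Cyp3a25 (0.01) and Cyp3a59 (0.05) had narrow intervals, from -0.52 to 0.53 and from -0.35 to 0.44. The female-predominant members Cyp3a16, Cyp3a41a, Cyp3a41b and Cyp3a44, chosen after their values were seen, were lowest in LPS replicate 1. Cyp3a41a was at 98.8, 144 and 249 CPM untreated and at 10.8, 88.8 and 92.3 CPM after LPS, and its groups did not overlap (adjusted p = 0.129 in edgeR). Of its transcript sequence, 98.6% of 50-base windows also occur in another gene, mostly Cyp3a41b, so reads of this pair cannot be assigned with confidence.

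The Cyp2c subfamily, which oxidises drugs and arachidonic acid, was the largest, with 15 members. Of these 13 were tested and none called, against the background of 45.3%, and 11 of the 13 log2 fold changes were negative (median -0.40). Cyp2c37, the most abundant per kilobase, was at 668, 919 and 476 CPM untreated and 347, 688 and 873 CPM after LPS. Cyp2c69 was at 336, 889 and 325 CPM untreated and 322, 335 and 463 CPM after LPS. In both genes the groups overlapped, with log2 fold changes of -0.11 (SE 0.38) and -0.47 (SE 0.40). Cyp2c40, chosen after its values were seen, had the smallest adjusted p of the subfamily, 0.0606 in edgeR, and was at 209, 486 and 354 CPM untreated and 145, 215 and 221 CPM after LPS. Cyp2c70, which makes muricholic acids in mouse and was also chosen after its values were seen, was at 31.6, 115 and 305 CPM untreated and 52.8, 116 and 124 CPM after LPS. The untreated range of Cyp2c70 was 9.64-fold and enclosed all LPS values. Between 52.8% and 60.3% of the 50-base windows of Cyp2c40, Cyp2c67 and Cyp2c69 occur in another gene. The array of 14 Cyp2c genes spans positions 39007019 to 40187333 of chromosome 19 (GRCm38), and the remaining member, Cyp2c23, lies at 44005022 to 44029208.

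The Cyp2d subfamily, relatives of the human drug-metabolising enzyme CYP2D6, had 8 members, of which 6 were tested and none called, against the same 45.3% (median log2 fold change -0.46). Cyp2d26 was at 587, 782 and 867 CPM untreated and 781, 913 and 906 CPM after LPS, a log2 fold change of 0.22 (SE 0.24). Cyp2d10 was at 505, 601 and 493 CPM untreated and 438, 605 and 515 CPM after LPS. Cyp2d10 was among the most even members, with an untreated range of 1.22-fold and a log2 fold change of -0.04 (95% interval -0.55 to 0.47). The summed Cyp2d level was 1576 ± 271 CPM untreated and 1596 ± 209 CPM after LPS.

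The Cyp2a subfamily oxidises steroids, nicotine and coumarin, and all 4 members were tested. Cyp2a4, a steroid hydroxylase that is higher in female mice, fell by 2.39 on the log2 scale (SE 0.79, adjusted p = 0.0351 in edgeR). It was at 246, 213 and 1925 CPM untreated and at 182, 129 and 144 CPM after LPS. All LPS values were below all untreated values, and most of the difference came from untreated replicate 3. Without that library the log2 fold change was -0.60 (adjusted p = 0.0537 in edgeR), and adjusted p was 0.0882, 0.0958 and 0.0974 without LPS replicate 1, 2 and 3. Cyp2a5, the mouse coumarin hydroxylase, was at 41.1, 107 and 2561 CPM untreated and at 261, 344 and 168 CPM after LPS. Its log2 fold change was -1.81 (SE 1.22, adjusted p = 0.257 in edgeR) and turned to 1.80 without untreated replicate 3 (adjusted p = 0.0106), since the LPS values were above those of untreated replicates 1 and 2. Both genes lie on chromosome 7 of GRCm38, Cyp2a4 at 26307169 to 26315088 and Cyp2a5 at 26835305 to 26843548. They share 36.1% of the 50-base windows of Cyp2a4. The other Cyp2a genes, Cyp2a12 and Cyp2a22, had log2 fold changes of -0.05 and -0.12 without a call.

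Untreated replicate 3 was at least 2-fold above the mean of the other untreated libraries in 14 tested members and at least 2-fold below it in 4. The 14 comprised Cyp2a4, Cyp2a5 and Cyp2a22, the Cyp3a genes Cyp3a16, Cyp3a41a, Cyp3a41b and Cyp3a44, and Cyp1a2, Cyp2b13, Cyp2c55, Cyp2c70, Cyp2d40, Cyp2g1 and Cyp2r1. The 4 were Cyp4a10, Cyp4a14, Cyp2d9 and Cyp4f18. Cyp2a5 had the widest spread of these, with an untreated range of 62.3-fold. The lists in this paragraph were chosen by these values and carry no test.

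Among the remaining xenobiotic enzymes of family 2 on chromosome 7, none was called, against the background of 45.3%. Cyp2b9, a female-predominant member, was at 390, 383 and 437 CPM untreated and 233, 326 and 307 CPM after LPS. Its groups did not overlap, with a log2 fold change of -0.48 (SE 0.22, adjusted p = 0.0986 in edgeR). Cyp2b10, the textbook target of Nr1i3, was at 3.41, 24.1 and 8.34 CPM untreated and 5.27, 9.65 and 6.77 CPM after LPS, a log2 fold change of -0.72 (95% interval -2.08 to 0.63). Cyp2f2, which activates naphthalene in the lung, was at 249, 405 and 511 CPM untreated and 164, 371 and 396 CPM after LPS. Cyp2g1, known from olfactory tissue, was low, at 0.455, 1.76 and 6.34 CPM untreated and 0.940, 1.39 and 0.253 CPM after LPS. In Cyp2b10, Cyp2f2 and Cyp2g1 the groups overlapped. Of the 5 Cyp2b genes, 3 were tested.

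The 7 female-predominant genes (Cyp2a4, Cyp2b9, Cyp2b13, Cyp3a16, Cyp3a41a, Cyp3a41b and Cyp3a44) summed to 997 to 3313 CPM before and 521 to 876 CPM after LPS. All 7 had their highest value in untreated replicate 3, and Cyp2a4 was the 1 called, against the background of 45.3%. The male-predominant genes Cyp4a12a and Cyp4a12b had at most 11 counts in a liver library, and Cyp2d9 was at 20.4 to 112 CPM.

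Family 1 holds the enzymes induced through Ahr. Cyp1a2, the caffeine-oxidising enzyme of liver, was at 103, 259 and 608 CPM untreated and at 315, 597 and 246 CPM after LPS. The groups overlapped fully, with a log2 fold change of 0.25 (95% interval -1.07 to 1.58). Cyp1b1, mainly an enzyme of extrahepatic tissues that hydroxylates oestrogens, was at 0.868 to 1.41 CPM untreated and 0.666 to 2.82 CPM after LPS. Cyp1a1, the most inducible Ahr target, had 10, 12 and 3 counts in the untreated libraries and 0 in all LPS libraries, and did not pass the filter on low counts. With counts pooled by group, the untreated level was 6.23-fold above a floor of 3 counts over the LPS group. This ratio rests on 25 untreated counts and leaves out their counting error and spread, so it is not a lower bound. Without the filter it was called lower (adjusted p = 0.00526 in edgeR), and this gene was chosen after its values were seen.

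Cyp2r1, the main enzyme of liver that hydroxylates the side chain of vitamin D, fell by 1.72 on the log2 scale (SE 0.57, adjusted p = 0.0372 in edgeR). It was at 2.59, 7.28 and 13.5 CPM untreated and at 1.32, 3.44 and 2.28 CPM after LPS. LPS replicate 2 was above untreated replicate 1, so the ranges overlapped. Leaving out untreated replicate 2 ended the call (adjusted p = 0.0685 in edgeR), as did leaving out untreated replicate 3 (log2 fold change -1.06, adjusted p = 0.115), LPS replicate 1 (0.123) or LPS replicate 3 (0.0975).

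Cyp2j9, a fatty acid hydroxylase known from mouse brain, was the member that rose, by 1.16 on the log2 scale (SE 0.35, adjusted p = 0.0254 in edgeR). It was at 1.96, 2.69 and 2.61 CPM untreated and at 8.02, 3.50 and 4.68 CPM after LPS. All LPS values were above all untreated values, with the highest in LPS replicate 1. Leaving out untreated replicate 1 ended the call (adjusted p = 0.0762), as did leaving out untreated replicate 2 (0.0531) or LPS replicate 1 (log2 fold change 0.77, adjusted p = 0.0787), and so did library totals (0.107) and upper-quartile scaling (0.0541). Its neighbour Cyp2j5, an arachidonic acid epoxygenase and the most abundant Cyp2j gene here, was at 332, 439 and 497 CPM untreated and 287, 419 and 385 CPM after LPS without a call (log2 fold change -0.22, SE 0.25). Of the 8 Cyp2j genes 3 were tested and 4 had 0 counts in all liver libraries. Cyp2u1, another fatty acid hydroxylase, was at 1.30 to 2.32 CPM untreated and 1.39 to 3.64 CPM after LPS.

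In family 4 the omega-hydroxylases Cyp4a14 and Cyp4a10, classical targets of Ppara that rise on fasting, were abundant and uneven. Cyp4a14 was at 7790, 4516 and 938 CPM untreated and at 3200, 4317 and 6039 CPM after LPS. Cyp4a10 was at 3305, 2232 and 1011 CPM untreated and at 2371, 3769 and 3820 CPM after LPS. Both were lowest in untreated replicate 3, the library in which Cyp2a4 and Cyp2a5 were highest. Their log2 fold changes were 0.03 (95% interval -1.40 to 1.47) and 0.61 (95% interval -0.37 to 1.58). The low-abundance relative Cyp4a32 fell by 1.22 on the log2 scale (SE 0.35, adjusted p = 0.0196 in edgeR). It was at 53.8, 26.1 and 23.7 CPM untreated and at 11.1, 14.0 and 19.4 CPM after LPS, with no overlap. The call was lost without LPS replicate 1 (adjusted p = 0.0758) or LPS replicate 2 (0.0614), and 43.8% of its 50-base windows occur in another gene, mostly Cyp4a10. Of the 8 Cyp4a genes 4 were tested.

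Cyp4b1, an enzyme known for activating lung toxicants and located next to Cyp4a32 on chromosome 4, fell by 1.05 on the log2 scale (SE 0.29, adjusted p = 0.0177 in edgeR). It was at 14.9, 8.30 and 9.81 CPM untreated and at 6.83, 4.88 and 4.18 CPM after LPS, with no overlap. Leaving out untreated replicate 1 ended the call (adjusted p = 0.0566), as did leaving out LPS replicate 2 (0.0610) or LPS replicate 3 (0.0693). Cyp4f14, which hydroxylates leukotriene B4 and vitamin E, fell by 0.97 on the log2 scale (SE 0.34, adjusted p = 0.0461 in edgeR). It was at 61.5, 139 and 159 CPM untreated and at 50.3, 76.5 and 56.8 CPM after LPS. LPS replicate 2 was above untreated replicate 1, and adjusted p ranged from 0.0559 to 0.147 without untreated replicate 2, untreated replicate 3 or any LPS replicate. Cyp4f15, the most abundant Cyp4f gene, was at 132, 171 and 130 CPM untreated and 144, 87.7 and 91.8 CPM after LPS (log2 fold change -0.42, SE 0.25). Cyp4v3, the mouse counterpart of the fatty acid hydroxylase mutated in human Bietti corneoretinal dystrophy, was at 210, 227 and 267 CPM untreated and 135, 239 and 195 CPM after LPS. In Cyp4f15 and Cyp4v3 the groups overlapped. Of the 9 Cyp4f genes 6 were tested and Cyp4f14 was the 1 called, against the background of 45.3%.

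The remaining 25 members were not tested. Of these 9 had 0 counts in all 6 liver libraries and 16 had counts too low for the filter, among them the sole members of Cyp2ab, Cyp2s, Cyp2t and Cyp2w. Cyp4x1, the sole Cyp4x gene, was among the 9. Cyp2t4, chosen after its values were seen, had 4, 6 and 5 counts untreated and 10, 6 and 9 counts after LPS.

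The genes that control or serve these enzymes were examined from lists of regulators, redox partners and heme enzymes, with falls and rises given on the log2 scale. Of 21 tested regulators 9 fell and 3 rose, beside a background of 22.1% lower and 23.3% higher, and 5 rose when untreated replicate 3 was left out. Ppara, the receptor behind Cyp4a induction, was at 110, 36.8 and 163 CPM untreated and at 11.7, 18.1 and 15.8 CPM after LPS, a fall by 2.76 on the log2 scale (SE 0.48, adjusted p = 0.00212 in edgeR). Nr1i3, which controls Cyp2b10, was at 48.3, 47.3 and 62.6 CPM untreated and at 10.7, 15.3 and 17.1 CPM after LPS, a fall by 1.87 (SE 0.23). Nr1i2, which controls Cyp3a11, was at 56.3, 74.2 and 117 CPM untreated and at 32.2, 19.5 and 26.8 CPM after LPS, a fall by 1.66 (SE 0.30). Ahr, which controls Cyp1a genes, was at 34.5, 46.9 and 25.3 CPM untreated and at 19.9, 14.6 and 18.4 CPM after LPS, a fall by 1.01 (SE 0.25). In all 4 receptors the groups did not overlap, where the background was 57.8% of all tested genes. Each receptor stayed called lower under every alternative setting run for it. Cyp4a14, Cyp4a10, Cyp2b10, Cyp3a11 and Cyp1a2, the tested members named above as their targets, had no call, with 95% intervals that reached from -2.08 in Cyp2b10 to 1.58 in Cyp4a10 and Cyp1a2. Cyp1a1, also named above as an Ahr target, did not pass the filter on low counts and had 0 counts in all LPS libraries. Without the filter Cyp1a1 was called lower (adjusted p = 0.00526 in edgeR). Differences between receptor and target changes were not tested.

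Tef, a D-box factor under clock control, was at 26.7, 37.3 and 191 CPM untreated and at 8.65, 10.9 and 8.10 CPM after LPS, a fall by 3.20 on the log2 scale (SE 0.70), and by 1.79 without untreated replicate 3. Bcl6, a repressor that takes part in sex differences of liver genes, rose by 2.45 (SE 0.18), from 6.14, 7.83 and 7.12 CPM to 40.5, 40.9 and 34.2 CPM. Among the other regulators called were Rxra, Nr1h4 and Onecut1, which fell by 0.62 to 1.85, and Cebpb and Foxa2, which rose by 1.66 and 1.12. Hnf4a, the central hepatocyte factor, was not called (log2 fold change -0.37, SE 0.29). The regulators other than Ppara, Tef and Bcl6 were chosen after their values were seen. Of 12 tested clock genes 7 fell and none rose, beside the same background, and 4 fell without LPS replicate 2 or LPS replicate 3.

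Of 7 redox partners 2 fell and none rose, where 22.1% of all tested genes fell and 23.3% rose, so the count of falls is near the background. Por, the reductase that supplies electrons to all members, was at 475, 511 and 1001 CPM untreated and at 345, 296 and 331 CPM after LPS, a fall by 1.03 (SE 0.31, adjusted p = 0.0262 in edgeR). Its groups did not overlap, and the call was lost without LPS replicate 1 (adjusted p = 0.0650), LPS replicate 2 (0.0967) or LPS replicate 3 (0.0833). Pgrmc2, a heme-binding membrane protein, fell by 0.90 (SE 0.19). The number of redox partners called lower was 4 on library totals, with upper-quartile scaling or without untreated replicate 1, and 1 without any 1 of the LPS replicates.

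Of 8 heme synthesis enzymes 2 fell, near the background of 22.1%, Cpox by 1.25 (SE 0.28) and Fech by 0.66 (SE 0.19), and none rose, or 1 when untreated replicate 3 was left out. The Fech call was lost without LPS replicate 1 (adjusted p = 0.0584 in edgeR) or LPS replicate 2 (0.0633). Alas1 was at 153, 185 and 240 CPM after LPS and, with its untreated value of 947 CPM in replicate 3, was not called (log2 fold change -1.22, SE 0.58, adjusted p = 0.115 in edgeR). Hmox1, which degrades heme, rose by 3.05 (SE 0.25), from 12.01, 20.2 and 18.1 CPM to 143, 116 and 158 CPM. It was the 1 of 4 heme breakdown genes called, against the background of 45.3%.

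Targets that share these receptors with the members were also counted, to be read against 22.1% of all tested genes lower and 23.3% higher. Of 12 other Ppara targets 2 fell (Fgf21 and Creb3l3) and none rose, a count of 0 when untreated replicate 1, LPS replicate 2 or LPS replicate 3 was left out and of 1 when untreated replicate 2 or LPS replicate 1 was. The count of 0 that rose was 2 without untreated replicate 1 and 1 without LPS replicate 1. Of 4 tested Ahr targets outside the P450 genes 1 fell (Ugt1a6a) and 2 rose, the larger rise being that of Tiparp, by 4.28 (SE 0.40), and 1 rose on library totals. The fall of Ugt1a6a was not called without LPS replicate 2.

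P450 genes of other families were counted on the same libraries. Of 11 tested genes outside families 1 to 4, 3 fell, a share near the background of 22.1%, and none rose. Cyp26b1, a retinoic acid hydroxylase, fell by 4.88 on the log2 scale (SE 0.66). Cyp20a1, which has no established substrate, fell by 0.77 (SE 0.18). The bile acid enzyme Cyp7a1 was at 163, 260 and 142 CPM untreated and at 5.58, 9.88 and 6.77 CPM after LPS, with a log2 fold change of -4.66 (SE 0.34). The largest fall of a tested member, that of Cyp2a4, was 2.39, and the difference between the families was not tested. The count of 3 was 5 without untreated replicate 1 and 6 on library totals, and 1 gene was called higher without untreated replicate 2 or LPS replicate 1.

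Markers of hepatocyte zones were counted beside the members, to be read against 22.1% of all tested genes lower and 23.3% higher. Of 12 tested pericentral markers that are not P450 genes 2 fell and 1 rose, with sums of 2715 to 4150 CPM before and 3653 to 5645 CPM after LPS. Of 11 periportal markers 2 fell and none rose, with sums of 10767 to 17905 CPM before and 6303 to 7451 CPM after LPS. Their part in the P450 values was not tested.

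In the macrophage libraries, with 15605311 to 18062853 counts each, all 7 macrophage markers listed were present, with a summed level of 11366 to 30424 CPM. Few P450 members were detected. At least 10 counts in all 6 libraries were found for 8 members, against 52 in liver, and 57 members had 0 counts in all 6. The P450 genes together held 0.0243% to 0.0459% of a macrophage library. Over the 6 libraries of both hairpins together, Cyp4v3 had the highest median level, 35.5 CPM per kb (range 17.9 to 40.02). Cyp1b1, which is known from myeloid cells, followed at 19.8 CPM per kb (range 4.12 to 45.9), while its liver range on the same scale was 0.0982 to 0.425. In shNC replicates 1 and 2 Cyp1b1 was above Cyp4v3, at 45.9 and 21.8 against 35.5 and 17.9 CPM per kb, and in the other libraries below it. Cyp4f16, Cyp4f13 and Cyp4f18 had medians of 4.79 to 6.06 CPM per kb, and Cyp2j6, Cyp2r1 and Cyp2ab1 completed the 8. Cyp4f18, which inactivates leukotriene B4 in mouse neutrophils, was at 2.24 to 9.17 CPM per kb in macrophages and 0.161 to 0.464 in liver. Cyp2d22 and Cyp4f17 reached 10 counts in 5 of the 6 libraries. The most abundant liver member, Cyp2e1, had 3 counts over the 6 macrophage libraries together. Liver and macrophage tables came from different annotations, so these levels are given side by side without a test.

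**Figure D5:**
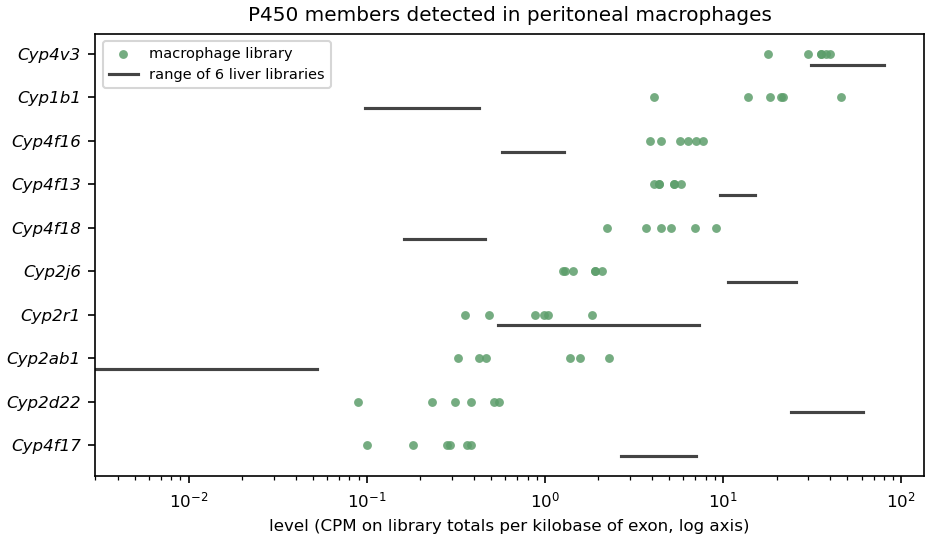
Points are levels of the 10 P450 genes that reached 10 counts in some macrophage library, 1 point per library (6 libraries), in CPM on library totals per kilobase of exon on a log axis, and grey lines are the range of the 6 liver libraries. Cyp1b1, Cyp4f16, Cyp4f18 and Cyp2ab1 lie above their liver range, and the liver range of Cyp2ab1 begins at 0, drawn at the edge of the axis.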

How the data were processed

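The authors deposited raw counts, whole-number read counts per Ensembl gene in 1 table per library, per the file headers. STAR, featureCounts 1.6.3 and the build mm10 appear in the submitters' processing notes. Strand use, multi-mapping treatment and annotation release are not given there or in the labels, so reads of near-identical or overlapping genes may be shared or lost. Symbols came from a gene name table that matched 49326 of 49585 liver identifiers and 55141 of 55401 macrophage identifiers. Coordinates, gene types and exon lengths (union of exons) are those of GENCODE M21 on GRCm38.

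Groups were taken from titles and treatment labels. The liver counts of 13869 genes kept by filterByExpr were fitted with edgeR 4.0.16 under R 4.3.3 (TMM scaling, quasi-likelihood F test, 2-sided, Benjamini-Hochberg adjustment over these genes, call at an adjusted p under 0.05). The test was checked on simulated counts. Levels are CPM on TMM-scaled sizes in liver and on library totals in macrophages, and CPM per kilobase of exon where genes are compared. The SE is the absolute log2 fold change over the square root of F. The floor for 0 counts is 3 counts, and such floors cover the counting error of the group with 0 counts only. Shared sequence was the share of 50-base windows of a gene's transcripts found in another gene. Alternatives were RLE, library totals, upper-quartile scaling, DESeq2 1.42.0, no filter, a 1 CPM filter, the replicate block and leaving out each library.

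Named members were the 10 highest per kilobase in untreated liver, the called members and the highest member of each tested subfamily. Members and lists were chosen with earlier results of these data known. Replicate numbers appeared in titles, and nothing in the labels says they mark shared animals or days. A listed regulator that enters the list's counts, and a motif, are not reported here by name.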

Additional observations from a re-analysis of the deposited data

How the results depend on the processing

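On library totals the all-gene median log2 fold change moved from -0.06 to -0.49 and that of the tested members from -0.32 to -0.74, with 26.8% of called genes higher in place of 51.3%, and upper-quartile scaling gave -0.27 and -0.53 with 37.5% higher. Members called lower numbered 5 in the reported test, 15 on library totals, 9 with upper-quartile scaling, 9 without the low-count filter and 2 to 7 with 1 library left out. Several of these counts include members outside the reported 5, such as Cyp1a1. The share of all tested genes called in either direction was 45.3%, 52.3%, 47.7%, 27.4% and 33.8% to 43.8% in these settings, in that order. Members called higher numbered 1, 0 on library totals, with upper-quartile scaling and with the replicate block, and 0 to 2 with 1 library left out. DESeq2 called 5 lower, with Cyp2c40 in place of Cyp2a4, for which it gave no adjusted p, and 1 higher. RLE and the 1 CPM filter called the same 5 and 1. The summed level ratio of 0.936 was 0.696 on library totals. Members detected in all macrophage libraries numbered 8, and 11 or 7 at a minimum of 1 count or 1 CPM.

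Among the named members, the directions that turned were all of genes without a call in the reported test, namely Cyp2a5 with the replicate block (0.69), Cyp4a14 on library totals (-0.44) and with upper-quartile scaling (-0.19), Cyp3a11 on library totals (-0.39), with upper-quartile scaling (-0.22) and without the filter (-0.0013), and Cyp2d26 (-0.20), Cyp1a2 (-0.15) and Cyp2u1 (-0.089) on library totals. With 1 library left out, the log2 fold change ranged from -0.23 to 0.23 for Cyp2e1, from -0.44 to 0.72 for Cyp4a14, from -2.38 to 1.80 for Cyp2a5, from -0.25 to 0.46 for Cyp3a11, from -0.40 to 0.20 for Cyp2c37, from -0.15 to 0.086 for Cyp2d10, from -0.71 to 0.15 for Cyp2c69, from -0.20 to 1.09 for Cyp1a2 and from -0.19 to 0.58 for Cyp2u1. Cyp2a5 was called higher in 1 of these. The cause was not tested.

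Same-numbered untreated and LPS libraries had correlations of deviations of 0.12, 0.05 and -0.08. With 3 libraries a group, these values cannot decide whether the numbers mark shared animals or days. The replicate block called 6 members lower, among them Cyp2c40 and Cyp3a41a and not Cyp2a4 (adjusted p = 0.0981 in edgeR), and gave Cyp2j9 an adjusted p of 0.0541. With 3 libraries a group the median SE of 0.37 limits which members can be called, and the 25 members not tested had too few counts at this depth. The clock list had 4 lower in place of 7 with the replicate block.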

Other observations

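Among the 18 P450 pseudogene symbols of these families 4 passed the filter on low counts and 1 was called, against 45.3% of all tested genes. Cyp2d37-ps was at 24.9 ± 4.50 CPM untreated and 3.32 ± 1.64 CPM after LPS (SD, n = 3), a fall by 2.91 on the log2 scale (SE 0.34, adjusted p = 0.000261 in edgeR's quasi-likelihood test). It stayed called lower under every alternative setting run for it, while none of the 6 tested protein-coding Cyp2d genes was called. How reads shared between such copies were counted is not given in the labels. It was chosen after its values were seen.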
